A study of Bos taurus with 9 samples.

Results

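The regions described here are 9218 short RNA polymerase II (Pol II) peaks of butyrate-treated bovine cells that carried no histone acetylation peak. They were the nuclear butyrate Pol II peaks below 500 bp that shared no base with an H3K9ac or H3K27ac peak of either control or butyrate-treated cells. The butyrate Pol II list held 31240 peaks, of which 31225 lay on the 30 nuclear chromosomes and 30051 of those were below 500 bp. The unacetylated Pol II sites made up 29.5% of the nuclear list and 30.7% of its short peaks. All 8 lists together held 673926 peaks.

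The cells were MDBK, an established epithelial line from bovine kidney, which were either left untreated as the control or given 5 mM butyrate for 24 h. In each condition, chromatin immunoprecipitation and sequencing (ChIP-seq) was done with 4 antibodies, against H3K9ac, H3K27ac, Pol II and H3K9me3, with 1 library per antibody and condition. Control libraries were sequenced on lane 4 and butyrate libraries on lane 5, so lane and treatment cannot be told apart. With 1 library per group no difference between conditions has a replicate check, and no p-value is given.

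Pol II transcribes protein-coding genes, and its ChIP signal is usually strongest where it pauses near active promoters, with weaker signal along gene bodies and at active enhancers. H3K9ac and H3K27ac mark active promoters and enhancers, whereas H3K9me3 marks heterochromatin and silenced repeats. Butyrate is a product of fibre fermentation by gut and rumen microbes. It inhibits histone deacetylases and raises histone acetylation. The question here was where short Pol II peaks outside every H3K9ac and H3K27ac peak lay relative to acetylated regions, and whether they shared positions with other lists. Unacetylated here means without a called peak of these marks, which does not show that acetylation was absent. The peak lists carry positions in the cattle assembly UMD3.1 but no gene names, and gene models were not used here. Sites are therefore described by position and by distance to acetylation.

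The other short butyrate Pol II peaks, 20833 in number, overlapped an acetyl peak and served as the acetylated comparison. Of these, 84.0% were overlapped by butyrate H3K27ac, 58.0% by butyrate H3K9ac, 55.5% by control H3K27ac and 53.1% by control H3K9ac. Acetyl peaks of both conditions covered 59.3% of them, acetyl peaks of butyrate cells alone 32.2%, and acetyl peaks of control cells alone 8.47%. Pol II peaks of 500 bp or longer were seldom without acetylation, with 60 of 1174 (5.11%, 95% Wilson interval 3.99 to 6.52). The same rule kept 40826 of the 55656 short control Pol II peaks (73.4%), 18725 short control H3K9me3 peaks (73.7%) and 77205 short butyrate H3K9me3 peaks (89.7%). These shares follow from the rule and are given as a description. All intervals cover counting error only, since neighbouring peaks are not independent and peaks are not replicates.

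The sites were small. Their median length was 215 bp (quartiles 199 and 255 bp), and 36.0% had the shortest length in the list, 199 bp. Together they covered 2.18 Mb, or 0.0818% of the nuclear span. Acetylated short Pol II peaks had a median of 242 bp, with 22.2% at 199 bp, while unacetylated control Pol II peaks had the same median as the sites, 215 bp, with 39.0% at 199 bp. Only 178 sites (1.93%) reached 400 bp, against 7.04% of the acetylated peaks. The plot of peak lengths shows the sites and the control Pol II peaks almost on top of each other. Because length was part of the rule, it is described without a test.

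**Figure D1:**
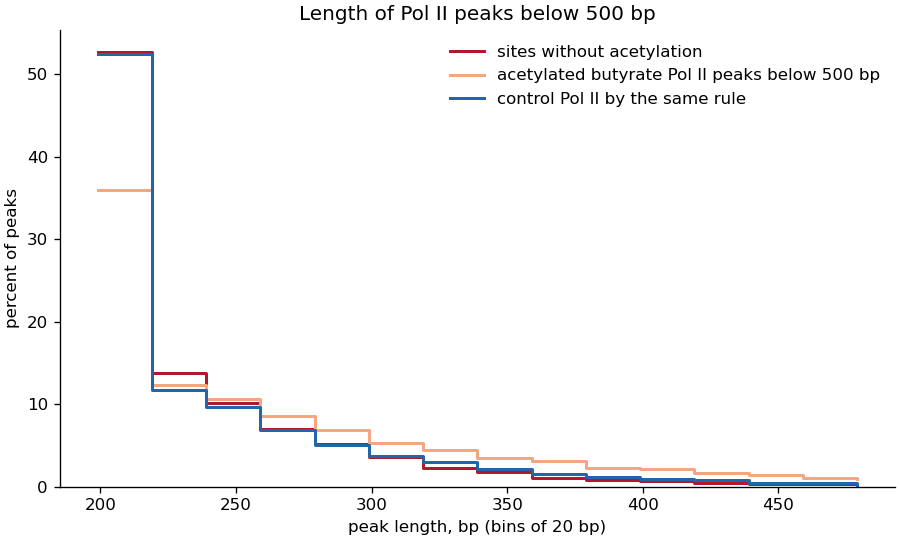
Length of Pol II peaks below 500 bp, in bins of 20 bp, as percent of peaks, for the unacetylated butyrate sites, the acetylated short butyrate peaks and control Pol II peaks chosen by the same rule. The first bin holds 52.7% of the sites and 52.4% of the control peaks but 35.9% of the acetylated peaks.

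At the length limit, the longest sites were chr19:27786396-27786894 (499 bp), chr4:69331829-69332326 (498 bp) and chr14:45661884-45662381 (498 bp). Their nearest acetyl peaks lay 0.742, 0.202 and 0.04 kb away. Just outside the limit were unacetylated peaks of 500 bp at chr23:30764311-30764810, of 501 bp at chr14:66735013-66735513 and of 503 bp at chr22:17253991-17254493. These lay 1.546, 1.024 and 0.601 kb from acetylation, so peaks on either side of the limit were all close to an acetyl peak.

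Most of the unacetylated Pol II sites lay near acetylation. The median distance from a site to the nearest acetyl peak of any of the 4 lists was 2.84 kb (quartiles 0.509 and 17.3 kb). This value depends on the overlap rule. It was 1.58 kb when an acetyl peak had to cover at least 50% of a Pol II peak to exclude it. That setting added Pol II peaks partly overlapped by acetylation, whose distance was counted as nil, so the lower median follows from the addition. The median was 9.16 kb when sites within 1 kb of acetylation were left out. Within 1 kb lay 33.9% of the sites (32.9 to 34.9), within 5 kb 58.7% (57.7 to 59.7), within 10 kb 68.0%, within 50 kb 86.6% and within 100 kb 91.9%. The acetyl-free span itself was much farther away, with a median base 24.9 kb from the nearest acetyl peak and 26.9% of bases within 5 kb. Among the nearest were 13 sites that touched an acetyl peak end to end with no shared base. With starts counted from 1 instead, these would share a base with it and would not be sites. The other end of the range held 745 sites (8.08%), which lay more than 100 kb from any acetyl peak.

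Closeness to acetylation was less common among the other unacetylated peaks. Control Pol II peaks chosen by the same rule had a median distance of 13.5 kb, and 34.0% of them lay within 5 kb, which is 24.8 percentage points below the butyrate sites. The share within 5 kb was higher for the butyrate sites than for these control peaks on 30 of 30 chromosomes. The medians for H3K9me3 were 13.8 kb in control and 19.5 kb in butyrate cells, with 32.3% and 26.2% within 5 kb. All 4 acetyl lists were used for every set, but butyrate cells had more acetyl peaks than control cells, 64.2% of the total. Against control H3K9ac alone, 27.22% of the butyrate sites and 11.98% of the control Pol II peaks by the same rule lay within 5 kb. For control H3K27ac the shares were 32.18% and 16.17%, for butyrate H3K9ac 42.6% and 23.97%, and for butyrate H3K27ac 43.87% and 20.22%. The part of the larger butyrate lists in the distances to all 4 lists was not tested.

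**Figure D2:**
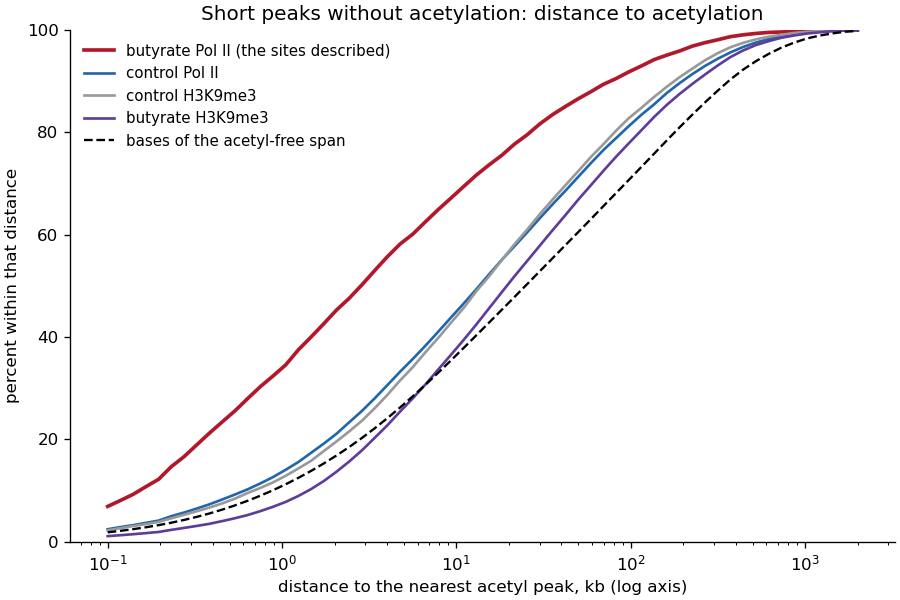
Percent of peaks (vertical axis) within a given distance of the nearest acetyl peak (horizontal log axis, kb) for short unacetylated peaks of 4 lists, with the bases of the acetyl-free span as a dashed line. The butyrate Pol II sites lie above every other curve between 0.1 and 100 kb, with 58.7% within 5 kb against 34.0% for control Pol II.

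Counted per megabase of acetyl-free span, the sites thinned out steadily with distance. There were 11.3 sites per Mb up to 1 kb from an acetyl peak, 5.62 from 1 to 5 kb, 3.51 from 5 to 10 kb, 2.79 from 10 to 50 kb, 1.84 from 50 to 100 kb and 1.01 beyond 100 kb. Control Pol II peaks by the same rule changed far less over the same distances, from 20.1 per Mb up to 1 kb and 20.4 from 1 to 5 kb to 10.2 beyond 100 kb. Sites far from acetylation were also shorter. The share at 199 bp was 28.9% up to 1 kb and 45.6% beyond 100 kb, with median lengths of 222 and 206 bp.

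Sites were enclosed by acetylation on both sides more often than control Pol II peaks by the same rule. An acetyl peak lay within 1 kb on each side of 9.15% of the sites, within 5 kb on each side of 29.3% and within 10 kb on each side of 40.4%. For control Pol II peaks by the same rule these shares were 2.13%, 12.3% and 20.4%. The acetyl-free interval around a site had a median length of 21.4 kb, against 75.1 kb around the control peaks. Over all acetyl-free intervals, each counted once, the median was 0.956 kb, but longer intervals have more room for a peak. The sites were spread over 7900 such intervals, so few intervals held many.

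The nearest acetyl peak came from butyrate and control cells about in proportion to their numbers of peaks. It was nearer in the butyrate lists for 63.3% of the sites and in the control lists for 35.1%, while these lists held 64.2% and 35.8% of all acetyl peaks. The median distances were 3.76 and 9.25 kb. Taken list by list, the single nearest peak was butyrate H3K27ac for 31.7% of the sites, butyrate H3K9ac for 30.8%, control H3K27ac for 24.8% and control H3K9ac for 9.99%. Those lists held 39.8%, 24.4%, 20.1% and 15.7% of all acetyl peaks, so butyrate H3K9ac and control H3K27ac were the nearest list more often than their size, and butyrate H3K27ac and control H3K9ac less often. By mark, H3K27ac was nearer for 56.9% of the sites and H3K9ac for 41.0%, where the lists of these marks held 59.9% and 40.1% of the acetyl peaks.

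The acetylated regions next to the sites were smaller and more often marked in a single list than acetyl regions in general, but less so than those next to other unacetylated peaks. When the 4 acetyl lists were merged into 256511 regions, which cover 4.33% of the nuclear span, the region nearest a site had a median length of 266 bp, against 320 bp for all regions. It came from only 1 of the 4 lists for 72.7% of the sites, against 60.8% of all regions, and from all 4 lists for 4.95%, against 8.54%. Next to control Pol II peaks by the same rule, the median region was 247 bp, 80.5% came from a single list and 2.95% from all 4. A single list marked the region next to 80.9% of the unacetylated control H3K9me3 peaks and 79.2% of the butyrate H3K9me3 peaks. A butyrate Pol II peak lay on the nearest region for 8.71% of the sites (8.15 to 9.30), beside 8.05% of all acetyl regions. Among the 5413 sites within 5 kb, that share was 11.1% (10.3 to 11.9), while for control Pol II peaks by the same rule within 5 kb it was 5.32% (4.96 to 5.71). A control Pol II peak lay on the nearest region for 7.70% of these sites (7.02 to 8.44) and for 8.29% of those control peaks (7.85 to 8.77). The order thus depended on which Pol II list was counted.

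Other butyrate Pol II peaks were usually not close by. The nearest acetylated short Pol II peak lay at a median of 48.3 kb from a site, and 21.6% of the sites had one within 10 kb. The acetylated peaks lay far closer to each other, with a median of 4.93 kb and 61.4% within 10 kb. For sites within 5 kb of acetylation the median to an acetylated Pol II peak was 20.9 kb, with 35.2% within 10 kb. The nearest Pol II peak of 500 bp or longer was 778 kb away at the median.

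Marks that the rule did not use were then compared between the unacetylated sites and the acetylated short peaks. Control Pol II peaks overlapped 557 sites, or 6.04% (5.57 to 6.55), where 8.27% of all nuclear butyrate Pol II peaks were overlapped. The share in the acetylated peaks was 8.75% (8.37 to 9.14), so the sites were lower by 2.70 percentage points, and the 95% Newcombe interval of the difference ran from -3.31 to -2.07. The sites were lower on 29 of 30 chromosomes.

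H3K9me3 of butyrate cells overlapped 1036 sites, or 11.2% (10.6 to 11.9), where the share over all nuclear butyrate Pol II peaks was 6.60%. In the acetylated peaks it was 4.51% (4.23 to 4.80), a difference of 6.73 percentage points (6.04 to 7.45), and the sites were higher on 30 of 30 chromosomes. H3K9me3 of control cells overlapped 397 sites, or 4.31% (3.91 to 4.74), where the share over all was 4.52%. In the acetylated peaks it was 4.46%, and the difference of -0.157 percentage points (-0.647 to 0.355) was within counting error.

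Unacetylated Pol II peaks of control cells lay close to the butyrate sites in this respect. Control Pol II peaks by the same rule were overlapped by butyrate H3K9me3 in 10.2% (9.94 to 10.5), which is 1.01 percentage points (0.310 to 1.73) below the butyrate sites. They were overlapped by control H3K9me3 in 3.85%, 0.459 points (0.0193 to 0.929) below. All ChIP libraries were called against the same input, and what that contributes to shared positions was not tested.

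Combining the lists, 7601 sites (82.5%) were met by neither control Pol II nor H3K9me3, and 1617 (17.5%) by at least 1 of the 3 lists. Butyrate H3K9me3 was the sole partner of 768 sites (8.33%), control Pol II of 352 (3.82%) and control H3K9me3 of 189 (2.05%). Control and butyrate H3K9me3 met at 168 sites, which is 42.3% of the sites with the control mark and 16.2% of those with the butyrate mark. Control Pol II and butyrate H3K9me3 met at 165 sites, 29.6% and 15.9% of each. All 3 lists met at 65 sites, or 0.705%.

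The longest sites with these overlaps stood in different surroundings. The site chr14:45661884-45662381 was met by both control Pol II and butyrate H3K9me3, 0.04 kb from an acetyl peak. Control Pol II also met chr5:19221341-19221811 (471 bp, 26.7 kb from acetylation) and chr28:27166648-27167118 (471 bp, with acetyl peaks 0.05 kb to the left and 0.379 kb to the right). Butyrate H3K9me3 met chr12:39917681-39918165 (485 bp, 6.25 kb away, also in control H3K9me3) and chrX:37169440-37169909 (470 bp, 22.0 kb away). The longest of the 65 sites in all 3 lists were chr6:5303039-5303505 (467 bp), chr14:12964047-12964455 (409 bp) and chr6:5764996-5765399 (404 bp), 31.3, 3.17 and 2.26 kb from acetylation.

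Sites that were also called by another list were slightly longer. The median was 229 bp where control Pol II overlapped a site and 214 bp elsewhere, and 221 against 215 bp for butyrate H3K9me3. The 1049 butyrate H3K9me3 peaks that overlapped a site were longer than the other peaks of their list, with medians of 277 and 232 bp, and 11.0% against 3.76% of them reached 500 bp. Longer peaks meet any region more easily, and this was not corrected for. The 556 control Pol II peaks that overlapped a site had a median of 244 bp, and 31 of them (5.58%) themselves reached an acetyl peak.

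The share with butyrate H3K9me3 differed with distance to acetylation. It was 6.24% up to 1 kb, 11.4% from 1 to 5 kb, 15.9% from 5 to 10 kb, 15.7% from 10 to 50 kb, 14.6% from 50 to 100 kb and 14.1% beyond 100 kb. The cover of the span by butyrate H3K9me3 peaks also differed. It was 0.808%, 1.11%, 1.08%, 1.03%, 0.855% and 0.576% at these distances in the same order. Its part in the shares was not tested. In control Pol II peaks by the same rule the share with butyrate H3K9me3 was 8.53% up to 1 kb, 11.8% from 1 to 5 kb, 12.3% from 5 to 10 kb and 6.44% beyond 100 kb. The butyrate sites were thus lower than the control peaks next to acetylation and higher far from it, with intervals of 5.45 to 7.15 against 7.83 to 9.29 up to 1 kb, and 11.8 to 16.8 against 5.91 to 7.02 beyond 100 kb. Control Pol II overlapped 4.80% of the sites up to 1 kb, 8.40% from 5 to 10 kb and 6.17% beyond 100 kb. Control H3K9me3 ran from 2.62% up to 1 kb to 6.50% from 10 to 50 kb. The share of sites on chromosomes 5 and 14, where all 3 lists are dense, also moved with distance, from 12.4% up to 1 kb to 27.1% from 50 to 100 kb, and its part in these shares was not tested.

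**Figure D3:**
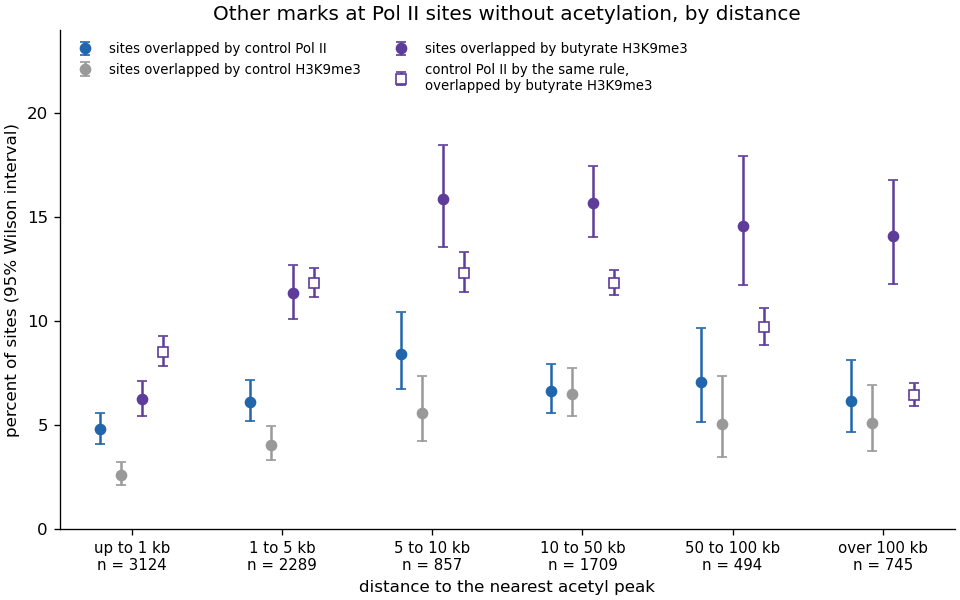
Percent of the unacetylated butyrate Pol II sites overlapped by control Pol II, control H3K9me3 or butyrate H3K9me3 (filled points), and of control Pol II peaks by the same rule overlapped by butyrate H3K9me3 (open squares), by distance to the nearest acetyl peak. Bars are 95% Wilson intervals, and n is the number of sites. Butyrate H3K9me3 rises from 6.24% of the sites up to 1 kb to 15.9% from 5 to 10 kb.

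The sites were unevenly spread over the chromosomes. Their density over the nuclear span was 3.47 per Mb, but 7.76 per Mb on chromosome 5 (940 sites) and 7.19 per Mb on chromosome 14 (609 sites). These chromosomes together held 16.8% of the sites (16.1 to 17.6) on 7.74% of the span. They also held 13.6% of the acetylated short peaks, 19.8% of the control Pol II peaks by the same rule, 25.4% of the control H3K9me3 peaks and 14.6% of the butyrate H3K9me3 peaks, so the excess was not particular to the sites. On chromosome 14, 38.8% of the short butyrate Pol II peaks were unacetylated, and on chromosome 5 33.4%.

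Sites on chromosomes 5 and 14 also differed in their surroundings. Their median distance to acetylation was 6.30 kb, against 2.46 kb on the other chromosomes. Control Pol II overlapped 14.1% of them (12.4 to 15.9), against 4.42% elsewhere (3.98 to 4.90). Butyrate H3K9me3 overlapped 22.4% (20.4 to 24.5), against 8.98% (8.36 to 9.64), and control H3K9me3 10.5% against 3.06%. The density of all peak sets compared here was raised on these chromosomes, and the part of that in the overlaps was not tested.

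On the X chromosome the balance was different. It had 150 sites, only 1.01 per Mb, but these were 52.3% of its short butyrate Pol II peaks, the highest share of the 30 chromosomes. Acetyl regions covered 0.966% of the X span. The median distance of its sites to acetylation was 10.3 kb, and 32.7% of them were overlapped by butyrate H3K9me3. Chromosome 19 stood at the other end, with acetyl regions on 6.36% of the span, a median distance of 1.18 kb and 71.1% of its 277 sites within 5 kb.

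**Figure D4:**
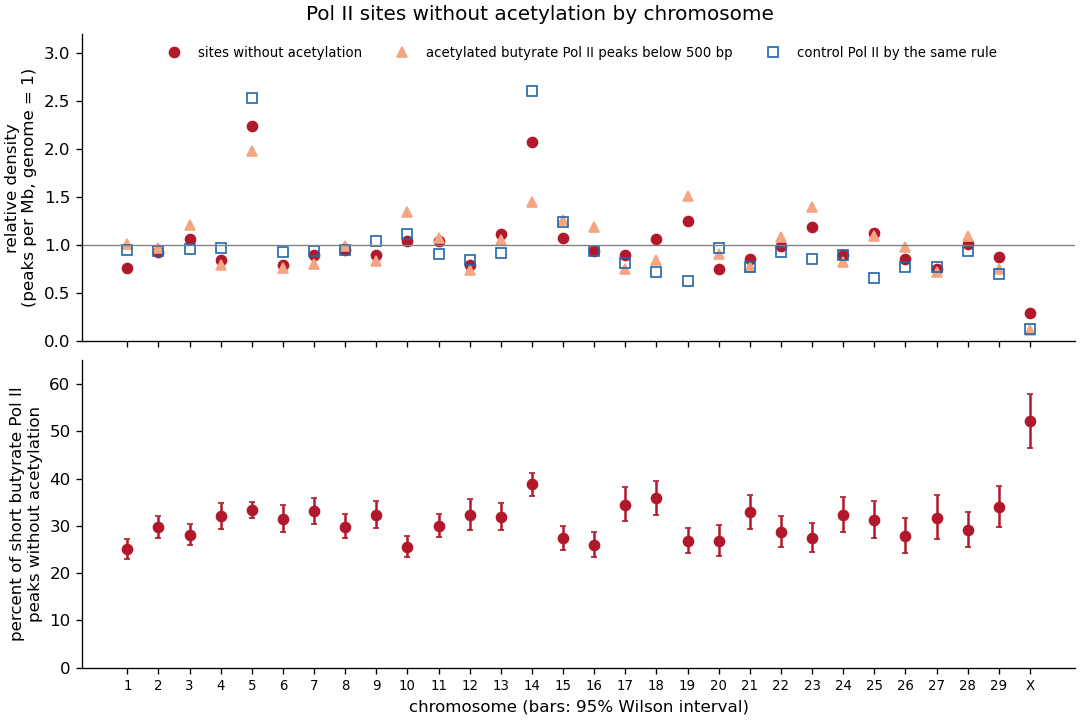
Upper panel, density per chromosome (peaks per Mb relative to the nuclear genome) of the unacetylated butyrate sites, the acetylated short butyrate peaks and control Pol II peaks by the same rule. Lower panel, percent of short butyrate Pol II peaks without acetylation, with 95% Wilson intervals. Chromosomes 5 and 14 reach relative densities of 2.24 and 2.08 for the sites, and X has the highest share, 52.3%.

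Most sites stood alone. The nearest other site was 67.0 kb away at the median, and 7829 sites had none within 10 kb. The other 1389 (15.1%) formed 644 chains, a chain being a run of sites with gaps of at most 10 kb. Pairs made up 575 of the chains, and 69 chains with 239 sites had 3 or more. Sites in chains of 3 or more lay closer to acetylation than sites that stood alone, with medians of 1.64 and 3.13 kb. The shares with butyrate H3K9me3 were 10.5% (7.19 to 15.0) and 11.2% (10.5 to 11.9), with intervals that overlapped.

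The largest chain held 15 sites over 25.9 kb at chr6:46728239-46754169. Its sites ran from 199 to 484 bp with a median of 243 bp and a median gap of 0.758 kb between neighbours, and 6 of them lay within 1 kb of an acetyl peak. The same stretch held 22 butyrate Pol II peaks in all, 4 of them short and acetylated and 3 of 500 bp or longer, the longest 747 bp. Butyrate Pol II peaks thus covered 27.6% of the stretch. Inside it were 3 butyrate H3K9ac and 3 butyrate H3K27ac peaks, and 0 peaks of control H3K9ac, control H3K27ac, control Pol II or either H3K9me3 list. The surroundings were not empty in control cells, with 12 H3K9ac, 16 H3K27ac and 4 Pol II control peaks in the stretch and the 50 kb on each side of it.

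The next chains were shorter. A chain of 6 sites at chr4:117908033-117915728 held 8 butyrate Pol II peaks and 1 butyrate H3K27ac peak, with 0 control peaks. A chain of 5 sites at chr26:23533810-23538950 held 9 butyrate Pol II peaks, 2 butyrate H3K27ac and 3 control H3K27ac peaks, and no site there was more than 0.572 kb from acetylation. At chr1:119753837-119756101, 4 sites lay within 0.993 kb of acetylation, with 1 control H3K27ac peak in the span. In all, 15 chains held 4 sites, and the one on chromosome 1 and the next were named by their lower chromosome and start. The chain of 4 sites at chr5:57952971-57968644 had 8 butyrate H3K9me3, 2 control H3K9me3 and 5 control Pol II peaks in its 15.7 kb, and acetylation no closer than 12.2 kb.

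**Figure D5:**
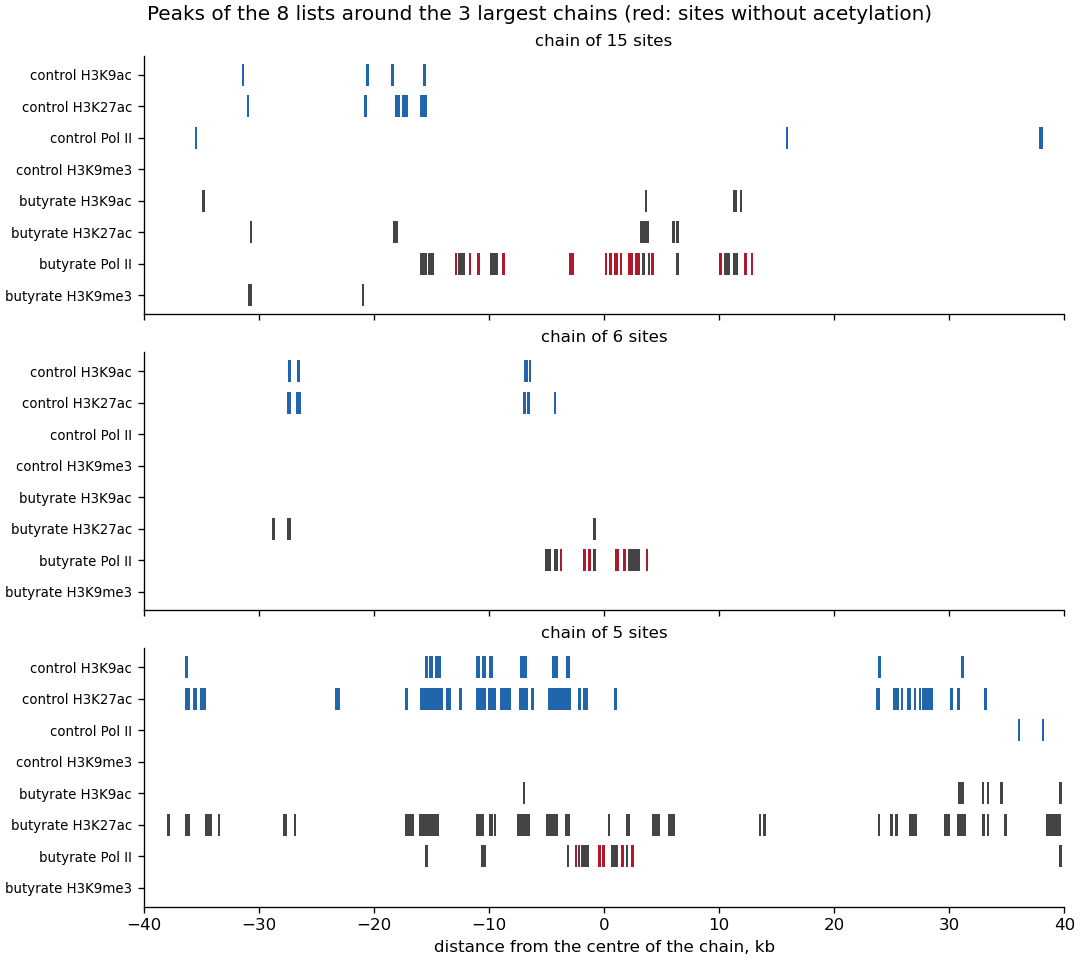
Peaks of the 8 lists around the 3 largest chains of unacetylated butyrate Pol II sites (red), drawn to scale in kb from the centre of each chain. Control peaks are blue and other butyrate peaks dark grey. The chains of 15 and 6 sites hold no control peak within their own span.

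Over the 69 chains of 3 or more sites, 46 held an acetyl peak within their span, 27 held an H3K9me3 peak of either condition, 17 held both and 13 held neither. An acetyl peak of butyrate cells without one of control cells was found in 13. The 17 chains on chromosomes 5 and 14 differed from the other 52. H3K9me3 lay in 15 of those 17 (88.2%, 65.7 to 96.7) and in 12 of the 52 (23.1%, 13.7 to 36.1), and control Pol II in 12 of 17 and 17 of 52. Acetylation lay in 9 of 17 and 37 of 52. Relative to the nuclear genome, unacetylated butyrate H3K9me3 peaks had a density of 1.79 on chromosome 5 and 2.02 on chromosome 14. Longer chains meet any peak more easily, and spans were not compared between these groups. The parts of density and span in these counts were not tested.

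In windows of 1 Mb, the median was 3 sites, and 446 of 2677 windows had none. Of the 106 windows with 10 or more sites, 58 were on chromosomes 5 and 14. The window with the most sites, 21, was chr6:46000001-47000000 and contained the chain of 15. The others in the top 5 were on chromosome 5, chr5:31000001-32000000 with 19 sites, chr5:45000001-46000000 with 18, and chr5:12000001-13000000 and chr5:79000001-80000000 with 17 each. In the chromosome 6 window 1 site met butyrate H3K9me3, while in the chromosome 5 windows 1 to 5 sites did. The median distance to acetylation was 1.91 kb in the chromosome 6 window and 26.0 kb in the chromosome 5 window with 19 sites. In the other 3 chromosome 5 windows it was 2.45, 2.89 and 4.31 kb.

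At the other extreme, a few sites lay megabases from any acetylation. The farthest was chr19:362563-362783 (221 bp), 3680.51 kb from the nearest acetyl peak and with none on its left side. It was followed by chr12:72155033-72155231 (199 bp, 1456.69 kb) and chr24:17477862-17478095 (234 bp, 1403.66 kb). Of these, control Pol II overlapped the site on chromosome 24, and neither H3K9me3 list overlapped any of the 3.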

How the data were processed

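ChIP-seq peak lists of 8 libraries were used, and the input library was not analysed here. According to the methods and the submitters' processing notes, the authors aligned reads of 75 nt with BWA and called peaks of each library with MACS2 against the input. Trim Galore 0.4.1 is also named, but the methods describe it for the RNA-seq and bisulfite libraries. The deposited lists give positions in base pairs on UMD3.1, as other values with no score, signal or read count, so depth was not used here. Starts were taken as 0-based, so printed starts are 1 higher than in the lists. No peak had an end minus start below 199, so lengths may be 1 bp too low.

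Mitochondrial peaks (15 in the butyrate Pol II list) were left out. Overlap meant at least 1 shared base. Distances were gaps between nearest ends, acetyl lists were merged for coverage, and the nuclear span ran to the last peak end of each chromosome. Shares carry 95% Wilson intervals, and differences 95% Newcombe intervals. Groups came from the labels. Tools were Python 3.11.15, numpy 2.4.6, scipy 1.17.1, pandas 2.3.3 and matplotlib 3.10.9, tested on simulated data.

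Named regions, with ties going to the lower chromosome and start, were the 5 windows of 1 Mb and the 5 chains with most sites, the 3 sites farthest from acetylation, the 3 longest sites overlapped by control Pol II, by butyrate H3K9me3 and by all 3 lists not used for the selection, and the 3 peaks on each side of the length limit. The sites and lists were chosen with earlier results of these data known. The alternatives were other length, overlap and distance limits, other chromosome sets, joined peaks and starts counted from 1. Genes and sequences were not analysed here, since no genome or annotation of UMD3.1 was used.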

Additional observations from a re-analysis of the deposited data

Results flagged for a closer look

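The number of short unacetylated peaks moved in opposite directions for the antibodies between control and butyrate cells. For Pol II it went from 40826 peaks in the control list to 9218 in the butyrate list, a log2 ratio of -2.15. For H3K9me3 it went from 18725 to 77205 peaks, a log2 ratio of 2.04. Over all short peaks, acetylated or not, the lists also moved in opposite directions, from 55656 to 30051 for Pol II, a log2 ratio of -0.89, and from 25401 to 86041 for H3K9me3, a log2 ratio of 1.76. The acetylated short peaks alone went from 14830 to 20833 for Pol II, a log2 ratio of 0.49, and from 6676 to 8836 for H3K9me3, a log2 ratio of 0.40. This was singled out because the 1 library of each antibody moved the opposite way under the same contrast. The difference between the antibodies was not tested, since each group held 1 library. Peak numbers also rise with read depth, which was not used here, and its part in these ratios was not tested.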

How the results depend on the processing

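Of 84 values recomputed under 9 alternatives, 42 moved by less than their counting error and 42 moved by more. Shares and distances cannot be negative, so only the differences from the acetylated peaks could change direction, and 0 of those did. With no upper length limit, with autosomes only and with starts counted from 1, all values recomputed stayed within counting error. Keeping only Pol II peaks of at least 250 bp left 2515 sites, with 8.15% in control Pol II, 6.04% in control H3K9me3, 13.6% in butyrate H3K9me3, differences from the acetylated peaks of -2.07 and 8.52 points for control Pol II and butyrate H3K9me3, a median distance of 1.93 kb, 63.9% within 5 kb and 18.3% on chromosomes 5 and 14. Counting only acetyl peaks that cover at least 50% of a Pol II peak gave 10829 sites, 10.5% in butyrate H3K9me3, 1.58 kb and 64.9% within 5 kb. The sites added there partly overlapped an acetyl peak and their distance was counted as nil, so these distances follow from the addition itself. Leaving out sites within 1 kb of acetylation kept 6094, with 6.68%, 5.17% and 13.8% in the 3 lists. They had a median distance of 9.16 kb, 37.6% within 5 kb and 19.1% on chromosomes 5 and 14, where the distances follow from the removal itself. The differences in that setting, -1.55 and 9.07 points, were not from the acetylated peaks alone. Their comparison set also took in the unacetylated sites that were removed, so they cannot be set beside the other differences. Asking that an overlap cover 50% of a site gave 4.17%, 3.09% and 8.30%, with differences of -1.47 and 5.24 points. Without chromosomes 5 and 14, the 7669 other sites had 4.42%, 3.06% and 8.98%, a difference of 5.76 points for butyrate H3K9me3, 2.46 kb and 61.2% within 5 kb. Joining Pol II peaks less than 1 kb apart gave 8406 sites, 3.43 kb and 55.9% within 5 kb. Other than for the removals and the addition named, the cause was not tested.

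No paired analysis was possible because the results come from no test between samples, with 1 library in each group. No library was left out for the same reason. The lists have no score, so length was the only threshold, and 36.0% of the sites had the shortest length. How near those peaks stood to the calling limit was not tested. Read depth and signal over the input were not used here.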
